A study of Mus musculus with 18 samples.

Results

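The 51 genes described here copy the genome, duplicate its chromatin, drive the cell cycle or part the chromosomes, and they were taken by name as a functional group out of the 37236 genes of the deposited table. They comprised 12 genes of origin licensing, origin firing and the replication clamp, 4 genes of nucleotide supply, 6 genes that encode cyclins or Cdk1, 3 E2F transcription factors, 6 genes of chromatin duplication, 7 mitotic kinases and checkpoint genes, 4 kinetochore genes, 7 spindle and cytokinesis genes, and the proliferation markers Mki67 and Top2a. The choice went by function, but earlier results of these data were known when it was made. All 51 were present, and all 51 were among the 11992 genes tested, those whose normalized counts averaged 10 or more across the 18 libraries.

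A cell that enters the cycle first frees E2F factors from their repressors, and these switch on cyclin E and the replication genes. The MCM helicase is then loaded on replication origins by Cdc6 and Cdt1, is fired with Cdc45 and the GINS proteins, and new histones are placed behind the fork by the chaperones Asf1b and CAF-1. Cyclin A and B with Cdk1, the Aurora and Polo kinases, the kinetochore and the spindle carry the cell through mitosis, and T cells that expand after meeting antigen express these genes as a block.

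RNA was measured by QuantSeq 3′ mRNA sequencing of tumor-infiltrating lymphocytes (TILs) from B16-OVA tumors, a mouse melanoma line that carries ovalbumin as a model antigen. C57BL/6 mice received 500000 B16-OVA cells s.c. and 0.5 mg antibody i.p. from d3, and tumors were taken at d14. The study asked how loss of Nr2f6, a nuclear receptor that represses T-cell activation genes, and blockade of PD-L1, the ligand of the inhibitory receptor PD-1, shape the T-cell transcriptome alone and together. The 4 groups were Nr2f6+/+ mice with control IgG2b (n = 3), Nr2f6-/- mice with IgG2b (n = 3), Nr2f6+/+ mice with anti-PD-L1 (n = 6) and Nr2f6-/- mice with anti-PD-L1 (n = 6). The Nr2f6-deficient mice had been back-crossed to C57BL/6 and lacked the gene in all of their cells, not only in T cells. The study's methods give an age of 8 to 12 weeks for tumor challenge. T cells were enriched with CD4 and CD8 beads, pooled and sorted for CD3, so CD4+ and CD8+ cells and cycling and resting cells were measured as 1 mixture. In such bulk samples fewer cycling cells and less RNA per cycling cell cannot be told apart. The labels do not say whether each library was a separate mouse, so the p-values measure the spread between these libraries.

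Libraries held 12473391 to 18609482 reads on genes, and 11107 to 13655 genes had more than 0 reads. Nr2f6 was at 0 reads in all 9 Nr2f6-/- libraries and lay between 20.2 and 201 normalized counts in the 9 Nr2f6+/+ libraries. All 8 T-cell markers were detected in every library. The summed level of 10 macrophage and monocyte markers was 12667 to 15123 in Nr2f6+/+ IgG2b, 7251 to 11038 in Nr2f6-/- IgG2b, 1217 to 6055 in Nr2f6+/+ anti-PD-L1 and 845 to 2318 in Nr2f6-/- anti-PD-L1. The 7 melanocyte and tumor-cell markers summed to 2495 to 4665, 1156 to 2336, 2026 to 7149 and 736 to 4371 in the same order. Replicates 4 to 6 of both anti-PD-L1 groups came from a second set of library numbers that held no IgG2b sample, so differences between treatments are also given for the first set alone.

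Every cell cycle gene was detected in these TIL libraries. The libraries also held macrophage and tumor-cell transcripts, and the reads cannot be assigned to a cell type. 50 of the 51 genes had at least 3 reads in all 18 libraries, and the exception was Cenpf, a large kinetochore protein gene, with 0 reads in Nr2f6+/+ anti-PD-L1 replicate 2, the library with the fewest detected genes (11107). Together the 51 genes took 0.656 to 0.987% of the reads on genes. Their share was 0.696 to 0.847% in Nr2f6+/+ IgG2b, 0.773 to 0.987% in Nr2f6-/- IgG2b, 0.656 to 0.95% in Nr2f6+/+ anti-PD-L1 and 0.811 to 0.941% in Nr2f6-/- anti-PD-L1, so all 4 groups overlapped. Between replicates the genes spread less than all genes tested, which reach down to a mean of 10 normalized counts. Genes of like level were not compared. The median spread within groups (residual SD on the log2 scale) was 0.47 for the 51 genes and 0.88 for all genes tested, with Cenpa the steadiest at 0.18 and Cenpf the most variable at 2.34.

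**Figure D1:**
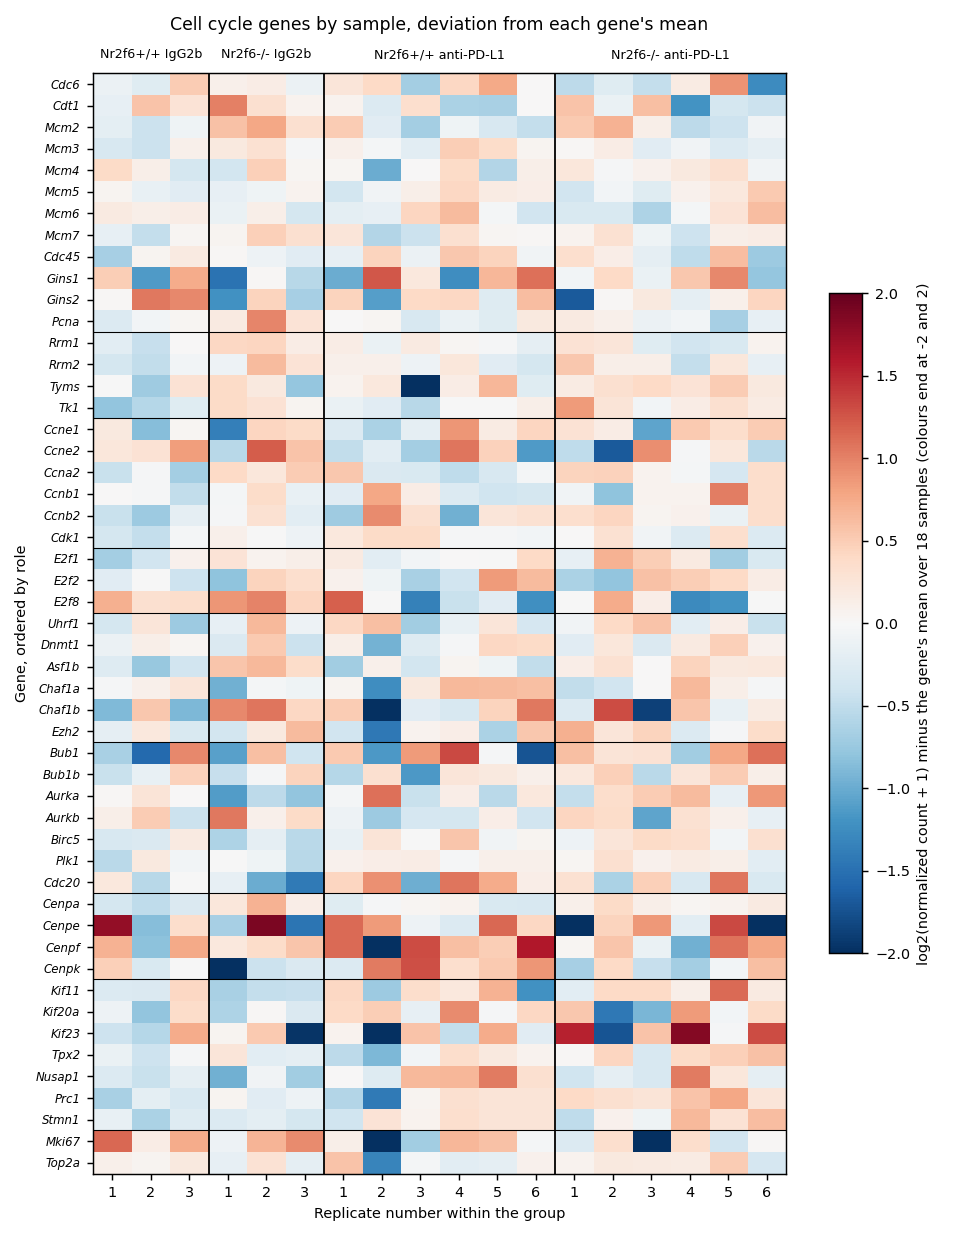
Heat map of the 51 cell cycle genes (vertical axis, ordered by role and divided by lines) in the 18 samples (horizontal axis, replicate numbers within the 4 groups). Colours give log2(normalized count + 1) minus the gene's mean over all samples. Blocks of colour do not follow the groups, and single cells of dark blue, such as Cenpf in Nr2f6+/+ anti-PD-L1 replicate 2, mark libraries far below the rest, with the colour scale ending at -2 and 2.

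Under IgG2b several replication and chromatin genes lay higher in Nr2f6-/- than in Nr2f6+/+ TILs, but 0 of the 51 genes passed the adjusted threshold in limma. In this comparison of 3 against 3 libraries, 31 genes were higher and 20 lower in Nr2f6-/-, with a median log2 difference of 0.08 beside -0.06 over all genes tested. Of all genes tested 0% passed the adjusted threshold. At an unadjusted p under 0.05 there were 8 higher and 2 lower cell cycle genes, 10 of 51, where 5.35% of all genes reached that level, 2.03% higher and 3.32% lower. For 11 of the 51 genes the 3 libraries of 1 genotype all lay above those of the other, as they did for 14.2% of all genes. Asf1b, Ccna2, Cenpa, Mcm2, Mcm7, Pcna, Rrm1 and Tk1 were the higher ones and Aurka, Chaf1a and Kif11 the lower ones. On whole reads edgeR called 0 of the 51 (0% of all genes), and DESeq2 called Asf1b and Cenpa (0.734% of all genes).

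Asf1b, the histone H3-H4 chaperone of replicating cells, had the smallest p of the 51. Its normalized counts were 2223, 1558 and 2041 in Nr2f6+/+ IgG2b and 3885, 4173 and 3423 in Nr2f6-/- IgG2b. Every Nr2f6-/- library lay above every Nr2f6+/+ library. The log2 difference was 0.99 ± 0.24 (SE), a fold of 1.99 (limma adjusted p = 0.48, unadjusted p = 2.83e-04). Cenpa, the histone H3 variant that marks centromeres, had 4618, 4155 and 4808 normalized counts in Nr2f6+/+ and 6899, 9559.6 and 6437 in Nr2f6-/-, again without overlap. Its log2 difference was 0.73 ± 0.20 (SE, limma adjusted p = 0.575). Ccna2, the cyclin of S phase and G2, had 2804, 3725 and 2381 normalized counts in Nr2f6+/+ and 5014, 4466 and 5407 in Nr2f6-/-. These groups did not overlap either, and the log2 difference was 0.76 ± 0.26 (SE, limma adjusted p = 0.846).

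The roles differed in their medians, none of which was tested. All 4 nucleotide supply genes were higher in Nr2f6-/- IgG2b, with a median log2 difference of 0.56, among them Tk1 and both ribonucleotide reductase subunits, Rrm1 at 0.55 and Rrm2 at 0.57. Tk1, the salvage enzyme of thymidine, had 456, 533 and 670.0 normalized counts in Nr2f6+/+ and 1031, 968 and 817 in Nr2f6-/-, without overlap (log2 difference 0.77). The 6 genes that encode cyclins or Cdk1 had a median of 0.26, with 5 higher. Of 12 licensing and firing genes 7 were higher with a median of 0.04, and the range ran from 0.80 for Mcm2, a helicase subunit, to -1.15 for Gins2 of the GINS complex. Mcm2 had 2216, 1889 and 2396 in Nr2f6+/+ and 3841, 4353 and 3164 in Nr2f6-/-, also without overlap. Pcna, the sliding clamp of DNA polymerases, had 2824, 3289.5 and 3505 in Nr2f6+/+ and 3854, 6714 and 4119 in Nr2f6-/-, a log2 difference of 0.57 ± 0.24 (SE, limma adjusted p = 0.892). Mcm5, a helicase subunit, differed by 0.04 ± 0.22 (SE). All 3 E2F genes were higher (median 0.30), as were 4 of 6 chromatin duplication genes (median 0.32). The largest estimate in that role, 1.23 for the CAF-1 subunit gene Chaf1b, was also the least certain (SE 0.86), with 96.6, 259.5 and 95.4 normalized counts in Nr2f6+/+ and 348, 378 and 239 in Nr2f6-/-. The mitotic kinase and checkpoint genes had a median of -0.08, the kinetochore genes one of -0.17 and the spindle and cytokinesis genes one of -0.12, with Aurka, the kinase of spindle poles, at -0.90. Mki67 differed by -0.18 on the log2 scale, and Top2a, the topoisomerase that untangles sister chromatids, differed by -0.13. None of these passed the adjusted threshold.

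Other cell markers differed in the same libraries. The 8 T-cell markers summed to 55474 to 70392 in Nr2f6+/+ IgG2b and 73633 to 80288 in Nr2f6-/- IgG2b, with all 8 higher in Nr2f6-/-. Of the melanocyte and tumor-cell markers 6 were tested and all 6 were lower, with a median log2 difference of -1.79, and 9 of 10 macrophage markers were lower. Their part in the cell cycle gene differences was not tested.

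**Figure D2:**
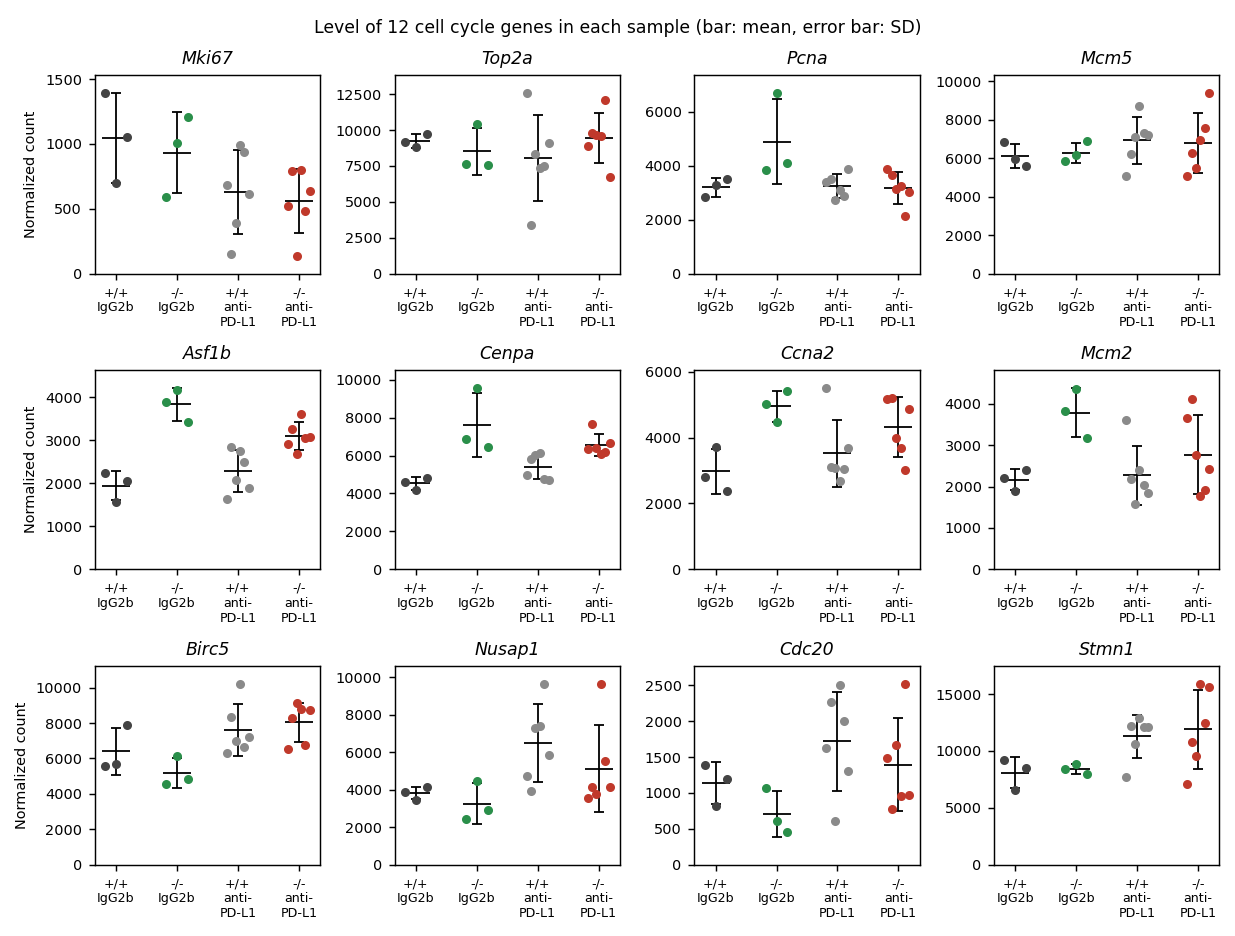
Normalized counts (vertical axes, starting at 0) of 12 cell cycle genes in each sample of the 4 groups (horizontal axes). Points are samples, the horizontal bar is the mean and the error bar the SD. Asf1b and Cenpa separate the genotypes under IgG2b, Birc5 separates the treatments in Nr2f6-/-, and Pcna and Mcm5 overlap in most groups.

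The genotypes were compared again with anti-PD-L1. Of the 51 genes 30 were higher and 21 lower in Nr2f6-/- than in Nr2f6+/+, with a median log2 difference of 0.08 (all genes -0.0049). 0 genes passed the adjusted threshold in limma, where 0.175% of all genes did, and 3 reached an unadjusted p under 0.05, all higher, where 9.73% of all genes did, 4.66% higher and 5.07% lower. edgeR and DESeq2 also called 0 of the 51 (0.183% and 1.53% of all genes). All 51 genes overlapped between the groups of 6, beside 0.592% of all genes that did not. The median half-width of the 95% interval for a cell cycle gene, not adjusted for the number of genes, was 0.52 on the log2 scale. Differences smaller than this were mostly not detectable, and larger ones could still miss the adjusted threshold.

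The 3 genes were Asf1b, Prc1 and Ezh2. Asf1b had 1639.5 to 2839 with a median of 2276 normalized counts in Nr2f6+/+ anti-PD-L1 and 2667 to 3615 with a median of 3053 in Nr2f6-/- anti-PD-L1. The lowest Nr2f6-/- library overlapped the upper part of the Nr2f6+/+ group, and the log2 difference was 0.46 ± 0.17 (SE, limma adjusted p = 0.352). Prc1, which bundles microtubules of the central spindle, had 641 to 2147 with a median of 1919 in Nr2f6+/+ and 2023 to 2942 with a median of 2199 in Nr2f6-/-, a log2 difference of 0.61 ± 0.24 (SE, limma adjusted p = 0.372). In the first library set alone it was 0.97 and in the second set alone 0.25. Ezh2, the histone H3 lysine 27 methyltransferase, had 751 to 2961 with a median of 1846 in Nr2f6+/+ and 1682 to 3317 with a median of 2515 in Nr2f6-/-. Its log2 difference was 0.53 ± 0.25 (SE, limma adjusted p = 0.507), but 1.05 in the first set and 0.01 in the second.

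The general proliferation genes did not separate the genotypes. Mki67, the Ki-67 antigen, had 152 to 995 with a median of 649 normalized counts in Nr2f6+/+ anti-PD-L1 and 134 to 800.1 with a median of 578 in Nr2f6-/- anti-PD-L1 (log2 difference -0.13, 95% interval -0.99 to 0.73). Top2a had 3417 to 12616 with a median of 7916 in Nr2f6+/+ and 6733 to 12070.2 with a median of 9631 in Nr2f6-/- (log2 difference 0.31, interval -0.11 to 0.73). Pcna had 2727 to 3892 with a median of 3257 in Nr2f6+/+ and 2145 to 3866 with a median of 3197 in Nr2f6-/- (log2 difference -0.04, interval -0.40 to 0.31). All 3 pairs of groups overlapped widely. Mcm5 had 5085 to 8736 with a median of 7153 in Nr2f6+/+ and 5057 to 9418 with a median of 6617 in Nr2f6-/- (log2 difference -0.04, interval -0.37 to 0.28). As folds these intervals ran from 0.759 to 1.24 for Pcna and from 0.776 to 1.22 for Mcm5, but from 0.503 to 1.66 for Mki67.

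**Figure D3:**
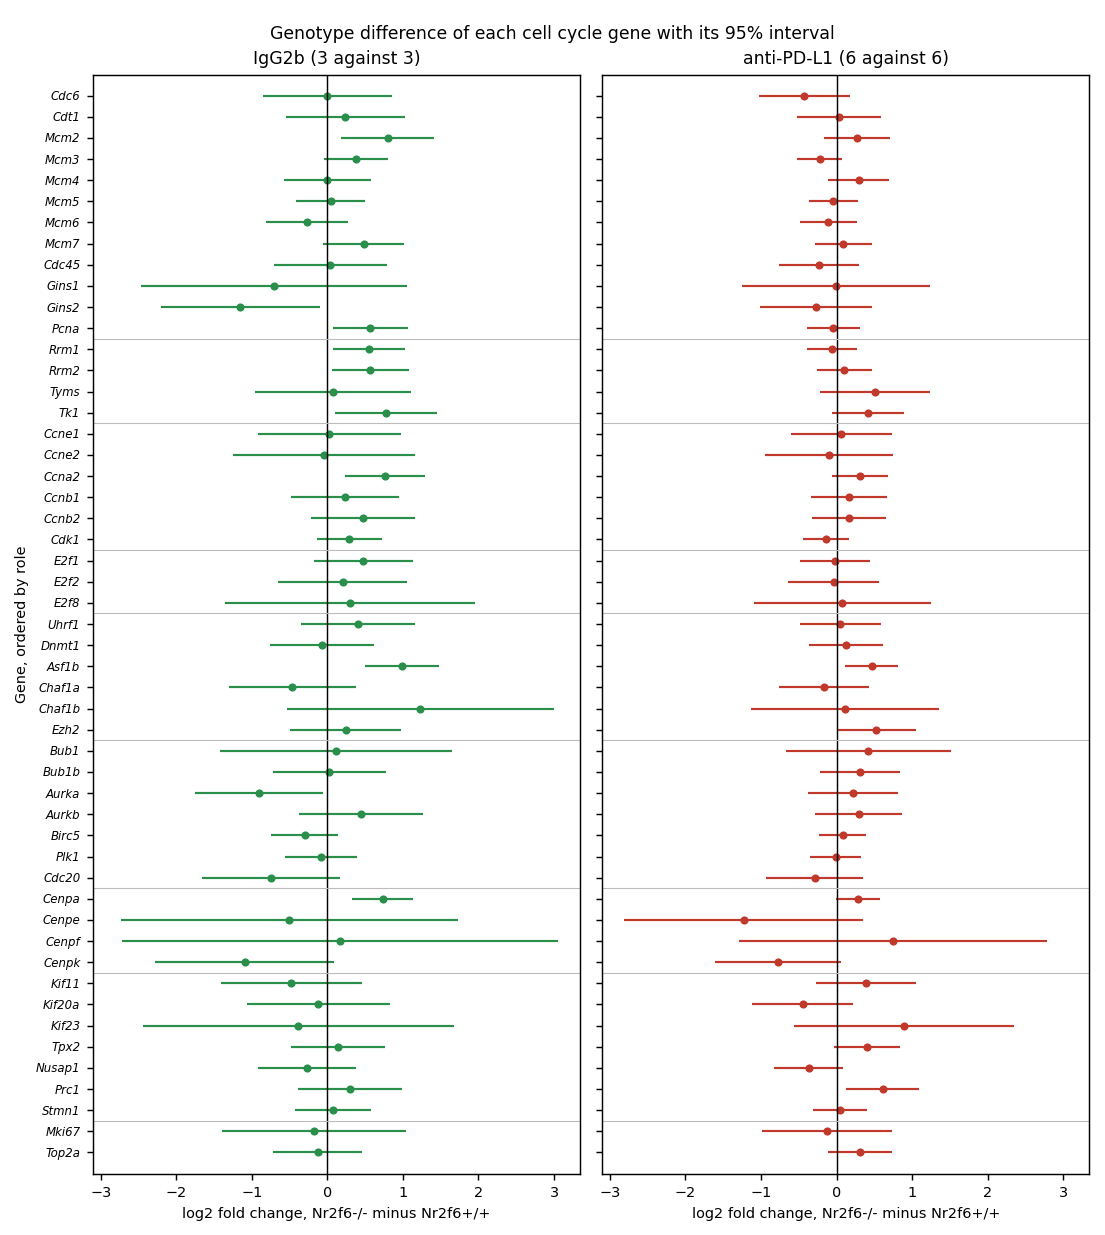
Log2 difference between Nr2f6-/- and Nr2f6+/+ (horizontal axes) for each of the 51 genes (vertical axis, by role), with IgG2b on the left and anti-PD-L1 on the right. Points are estimates, lines are 95% intervals from limma. The intervals of Asf1b lie above 0 in both panels, and those of most genes cross 0.

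The genotype difference tended to point the same way in both treatments, which share no sample. The sign agreed for 36 of the 51 genes (70.6%, 23 higher in both and 13 lower in both), beside 53.5% of all genes tested. The genes are not independent of each other, so no test was made of this share. Cell markers also pointed the same way in both treatments. The 6 tested melanocyte and tumor-cell markers were all lower in Nr2f6-/- with IgG2b (median -1.79) and with anti-PD-L1 (median -1.24), and 8 of 8 and 7 of 8 T-cell markers were higher (medians 0.27 and 0.29). Their part in the shared direction was not tested. When both treatments were averaged, a comparison chosen after seeing the data, 34 genes were higher and 17 lower in Nr2f6-/-, with a median log2 difference of 0.13 (all genes -0.04). 0 genes passed the adjusted threshold in limma (0.05% of all genes), 9 had an unadjusted p under 0.05 (8.48% of all genes, 3.69% higher and 4.79% lower), edgeR called 0 (0.0334% of all genes) and DESeq2 called Asf1b and Cenpa (1.51% of all genes). For 0 of the 51 did the 9 libraries of each genotype separate, beside 0.0167% of all genes.

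Asf1b stood at the threshold. Its log2 difference averaged over treatments was 0.73 ± 0.15 (SE), with a limma adjusted p of 0.0501. The adjusted p fell below 0.05 under 7 other limma settings, in DESeq2 and in some limma fits that left out 1 library. It rose to 0.212 in limma without Nr2f6+/+ IgG2b replicate 2. In the first library set alone the difference was 0.73, and with 1 library left out in turn it ranged from 0.65 to 0.78. Cenpa followed with 0.51 ± 0.12 (SE, limma adjusted p = 0.122) and Ccna2 with 0.54 ± 0.16 (SE, limma adjusted p = 0.253). Tk1 (0.60) and Mcm2 (0.53) were also higher with an unadjusted p under 0.05, and Cenpk (-0.94), a kinetochore subunit, and Gins2 (-0.71) were lower.

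Asf1b lies on the chromosome of Nr2f6. In the RefSeq annotation of GRCm38.p6 Asf1b spans chr8:83955694-83970195 and Nr2f6 chr8:71374118-71381967, 12.6 Mb apart. Mcm5 lies nearer still, 3.73 Mb away, and its genotype difference was 0.04 with IgG2b and -0.04 with anti-PD-L1. Of the 213 tested genes within 20 Mb of Nr2f6, 16.9% had an unadjusted p under 0.05 between genotypes with anti-PD-L1, against 9.73% of all genes, and 8.45% against 5.35% with IgG2b. Mice back-crossed after gene targeting can keep a stretch of the donor strain around the targeted gene, and for Asf1b such a stretch and the loss of Nr2f6 cannot be told apart.

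Asf1b and Cenpa had the smallest p-values of the 51 genes for the averaged genotype, and Nusap1 and Birc5 for the averaged treatment, and their promoters were therefore read. Each line is the 250 bases before an annotated start site, read 5′ to 3′ on the gene's strand from RefSeq on GRCm38.p6. Capitals mark the letters CCAAT or ATTGG, its reverse complement, which form the CCAAT box, and TTTGAA or TTCAAA, the cell cycle genes homology region (CHR).
Asf1b (chr8:83955444-83955693, plus strand): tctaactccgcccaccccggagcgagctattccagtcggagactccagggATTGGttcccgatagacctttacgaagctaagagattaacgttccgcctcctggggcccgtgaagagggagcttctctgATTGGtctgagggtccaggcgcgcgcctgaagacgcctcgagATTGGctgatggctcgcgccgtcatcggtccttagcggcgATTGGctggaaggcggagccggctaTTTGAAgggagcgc
Cenpa (chr5:30666636-30666885, plus strand): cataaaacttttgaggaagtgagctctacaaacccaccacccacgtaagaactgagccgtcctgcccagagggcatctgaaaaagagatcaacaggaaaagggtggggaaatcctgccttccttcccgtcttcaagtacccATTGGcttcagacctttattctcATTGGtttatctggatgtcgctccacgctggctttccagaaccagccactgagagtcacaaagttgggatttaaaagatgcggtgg
Nusap1 (chr2:119618048-119618297, plus strand): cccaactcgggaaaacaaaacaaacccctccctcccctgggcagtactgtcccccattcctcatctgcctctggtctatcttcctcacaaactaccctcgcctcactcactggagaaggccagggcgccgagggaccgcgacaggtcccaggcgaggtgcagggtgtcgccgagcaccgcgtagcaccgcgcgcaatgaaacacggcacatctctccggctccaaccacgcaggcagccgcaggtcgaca
Birc5 (chr11:117848987-117849236, plus strand): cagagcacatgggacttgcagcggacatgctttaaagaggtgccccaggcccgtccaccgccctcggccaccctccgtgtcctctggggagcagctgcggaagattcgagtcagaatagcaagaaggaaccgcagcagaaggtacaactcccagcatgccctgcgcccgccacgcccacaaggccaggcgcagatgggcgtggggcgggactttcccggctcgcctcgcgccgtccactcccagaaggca
Asf1b held 4 CCAAT boxes and 1 CHR, Cenpa held 2 CCAAT boxes, and Nusap1 and Birc5 held neither. Of the 51 genes 42 matched the table, with 50 windows. CCAAT boxes occurred in 80% of the members' windows, in 33.8% of all windows and in 35.4% of those of protein-coding genes. The CHR letters occurred in 26%, 16% and 14.5%. An E2F site (TTTCCCGC, TTTGGCGC or TTTGGCGG, both strands) occurred in 10%, 1.73% and 2.17%, and all 5 of the members' windows with it belonged to S phase genes such as Mcm6, against 0 of 19 windows of mitosis genes. The nuclear receptor half-site AGGTCA, the kind of letters that receptors such as NR2F6 bind, occurred in 8% of the members' windows and 14% of all windows. These matches describe letters and do not show binding.

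With PD-L1 blockade the mitotic kinase, checkpoint and spindle genes of Nr2f6-/- TILs lay higher, though not past the threshold, while the kinetochore genes did not. Among the Nr2f6-/- libraries 31 genes were higher and 20 lower with anti-PD-L1 than with IgG2b, with a median log2 difference of 0.06 (all genes -0.04). In the first library set alone 25 were higher and the median was -0.01. 0 genes passed the adjusted threshold in limma (0.325% of all genes), while 6 higher and 1 lower had an unadjusted p under 0.05 (9.7% of all genes, 4.34% higher and 5.35% lower). edgeR called 0 (0.3% of all genes) and DESeq2 called Birc5 (1.92% of all genes). The groups did not overlap for 4 genes, Aurka, Birc5, Kif11 and Prc1, beside 5.12% of all genes. All 7 spindle and cytokinesis genes were higher (median 0.52), as were 6 of 7 mitotic kinase and checkpoint genes (median 0.63), whereas the 12 licensing and firing genes split evenly with a median of -0.11. Of the 4 kinetochore genes 1 was higher and 3 were lower (median -0.18), and Mki67 and Top2a had a median of -0.36. In the first library set alone the medians were 0.27 for spindle and cytokinesis (6 of 7 higher), 0.62 for kinases and checkpoint (6 of 7 higher) and -0.14 for licensing and firing (3 of 12 higher). The mean log2 level of the kinase and checkpoint genes was 9.93, 10.12 and 9.87 in Nr2f6-/- IgG2b replicates 1 to 3 and 10.42, 10.48, 10.30, 10.37, 10.62 and 10.53 in Nr2f6-/- anti-PD-L1 replicates 1 to 6. These did not overlap, but all IgG2b libraries belong to the first set, so only replicates 1 to 3 compare within a set. For the spindle and cytokinesis genes the mean log2 level was 10.13, 10.35 and 9.86 and 10.64, 10.14, 10.38, 11.22, 10.84 and 10.88, where replicate 2 of the first set overlapped the IgG2b libraries and the 3 libraries of the second set were the highest. Over all 20 mitosis genes the mean was 9.83 to 10.29 with IgG2b and 10.10 to 10.59 with anti-PD-L1, which overlapped. These means describe the genes and were not tested.

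Birc5, or survivin, a subunit of the chromosomal passenger complex, had 4557, 6142 and 4827 normalized counts with IgG2b and 6518 to 9151 with a median of 8512 with anti-PD-L1 in Nr2f6-/-. Every anti-PD-L1 library lay above the IgG2b libraries. The log2 difference was 0.63 ± 0.19 (SE, limma adjusted p = 0.2) and 0.62 in the first library set alone. Aurka had 331, 503 and 416 with IgG2b and 518 to 1309 with a median of 973 with anti-PD-L1, without overlap. Its log2 difference was 1.09 ± 0.36 (SE, limma adjusted p = 0.25) and 0.94 in the first set. Pcna lay lower, with 3854, 6714 and 4119 with IgG2b and 2145 to 3866 with a median of 3197 with anti-PD-L1, and here the top of the anti-PD-L1 group overlapped the lowest IgG2b library (log2 difference -0.60 ± 0.21, limma adjusted p = 0.295, first set -0.42). Cdc20, the activator of the anaphase-promoting complex, had 1070.2, 604 and 449.6 with IgG2b and 775 to 2524 with a median of 1223 with anti-PD-L1, a log2 difference of 0.95 (first set 0.90) with overlap. Kif11, the motor that separates spindle poles, had 377, 424 and 428 and then 511 to 1302 with a median of 723, a log2 difference of 0.87 (first set 0.73) without overlap.

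The same treatment was compared in Nr2f6+/+ TILs. Of the 51 genes 35 were higher and 16 lower with anti-PD-L1 (median log2 difference 0.14, all genes -0.10), and 26 were higher in the first library set alone. 0 passed the adjusted threshold in limma (0.242% of all genes), in edgeR (0.158%) or in DESeq2 (0.784%), and 3 had an unadjusted p under 0.05 (7.24% of all genes, 2.19% higher and 5.05% lower). As in Nr2f6-/-, most spindle and cytokinesis genes were higher (6 of 7, median 0.20), and 4 of 7 mitotic kinase and checkpoint genes were (median 0.23). In the first library set alone these were 4 of 7 (median 0.06) and 5 of 7 (median 0.18). Nusap1, a microtubule-binding protein of the spindle, had 3883, 3453 and 4127 normalized counts with IgG2b and 3920.1 to 9657 with a median of 6589 with anti-PD-L1, a log2 difference of 0.70 ± 0.28 (SE, limma adjusted p = 0.553) and 0.43 in the first set alone. Cdk1, the kinase that starts mitosis, had 5361, 4914 and 6642 with IgG2b and 6600.1 to 8964 with a median of 7342 with anti-PD-L1, a log2 difference of 0.44 ± 0.18 (SE, limma adjusted p = 0.575, first set 0.62). Stmn1, which destabilizes microtubules, had 9194, 6558 and 8486 with IgG2b and 7698 to 12867 with a median of 12135 with anti-PD-L1, a log2 difference of 0.48 ± 0.21 (SE, limma adjusted p = 0.638, first set 0.32). For each of the 3 genes 1 anti-PD-L1 library fell within the IgG2b range and the other 5 lay above it, and all 51 genes overlapped, beside 4.54% of all genes that did not.

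Mki67 had its lowest values with anti-PD-L1. It had 1395, 699 and 1051 normalized counts in Nr2f6+/+ IgG2b and 588, 1005 and 1204 in Nr2f6-/- IgG2b, each above the median of the anti-PD-L1 group of the same genotype. The log2 difference with anti-PD-L1 was -0.92 ± 0.52 (SE, limma adjusted p = 0.77) in Nr2f6+/+ and -0.87 ± 0.52 (SE, limma adjusted p = 0.62) in Nr2f6-/-. In the first library set alone it was -1.55 and -1.23. The groups overlapped in both genotypes. Top2a had 9169, 8798 and 9724 with IgG2b in Nr2f6+/+ and 7614, 10437 and 7539.9 in Nr2f6-/-, and its treatment differences were -0.30 and 0.14 (first set -0.38 and 0.16). Mcm5 had 6832, 5949 and 5582 with IgG2b in Nr2f6+/+ and 5866, 6159 and 6878 in Nr2f6-/-, with treatment differences of 0.17 and 0.08 (first set -0.0052 and -0.17). Pcna differed by 0.02 between the treatments in Nr2f6+/+ (first set -0.00068).

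Averaged over genotypes, again chosen after seeing the data, 32 genes were higher and 19 lower with anti-PD-L1, and in the first library set alone 24 were higher. There were 0 genes past the adjusted threshold in limma (1.13% of all genes) and 8 at an unadjusted p under 0.05 (11.5% of all genes, 4.04% higher and 7.47% lower). All 51 genes overlapped, beside 0.325% of all genes that did not. DESeq2 called Nusap1, Birc5 and Stmn1 (2.78% of all genes) and edgeR 0 (0.859%). The library set moved with part of this. The estimate for Nusap1 went from 0.66 ± 0.19 (SE, limma adjusted p = 0.0942) to 0.35 and that for Stmn1 from 0.46 ± 0.15 (SE, limma adjusted p = 0.151) to 0.21 when the first set was taken alone, while that for Birc5 went from 0.44 ± 0.13 (SE, limma adjusted p = 0.1) to 0.40. All 10 macrophage and monocyte markers were lower with anti-PD-L1 in both genotypes, by a median of -3.20 in Nr2f6+/+ and -3.07 in Nr2f6-/- on the log2 scale, 3 of the 10 had at least 3 reads in every library, and 5 were at 0 in some libraries. Their part in the treatment differences was not tested.

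**Figure D4:**
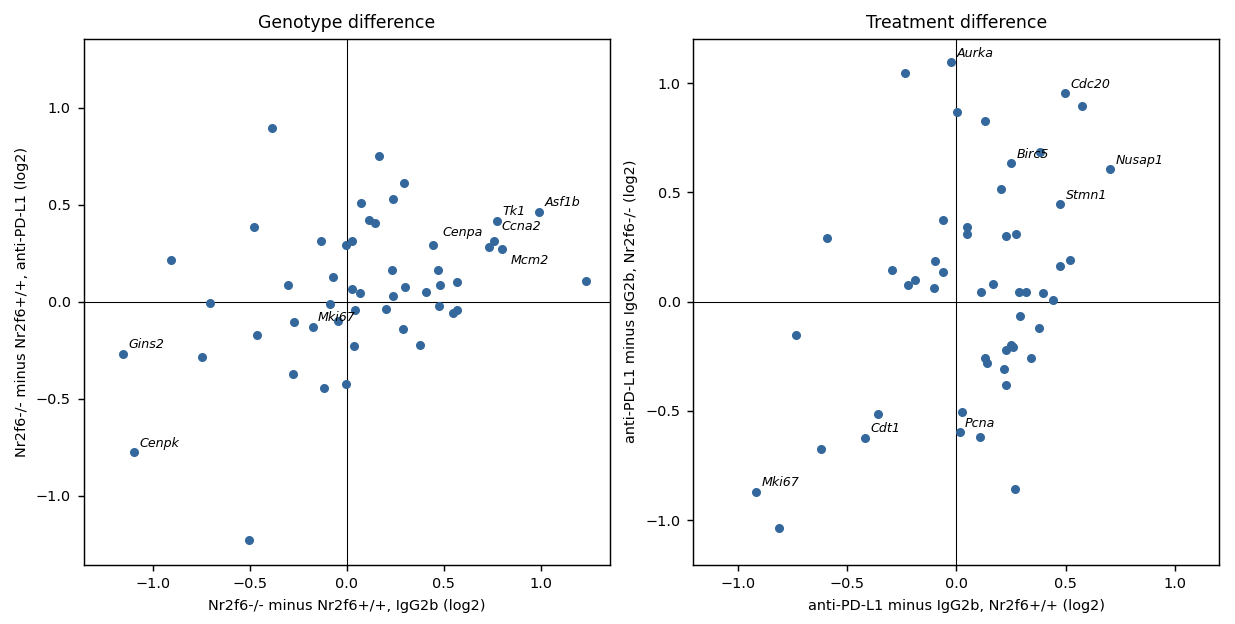
Log2 differences of the 51 genes. Left, Nr2f6-/- minus Nr2f6+/+ with IgG2b (horizontal axis) and with anti-PD-L1 (vertical axis). Right, anti-PD-L1 minus IgG2b in Nr2f6+/+ (horizontal axis) and in Nr2f6-/- (vertical axis). The paired comparisons share no sample, 36 genes have the same sign on the left and 27 on the right, and Asf1b lies at 0.99 and 0.46 on the left.

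The difference of the treatment effects between genotypes was tested by the interaction term. 0 of the 51 genes passed the adjusted threshold for this difference in limma (0% of all genes), edgeR (0%) or DESeq2 (0.634%), and 1 higher and 3 lower had an unadjusted p under 0.05 (4.97% of all genes, 3.09% higher and 1.88% lower). The 3 smallest p-values belonged to Mcm3, a helicase subunit, at -0.60 ± 0.25, Aurka at 1.12 ± 0.50 and Rrm1 at -0.61 ± 0.28 on the log2 scale (SE, limma adjusted p = 0.974 for each). With the first library set alone the estimates were -0.34, 0.83 and -0.52. Mcm3 had 6166, 5696 and 8306 normalized counts in Nr2f6+/+ IgG2b, 8818, 9518 and 7621 in Nr2f6-/- IgG2b, 6638 to 10781 with a median of 8144 in Nr2f6+/+ anti-PD-L1 and 6358 to 8545 with a median of 7050.2 in Nr2f6-/- anti-PD-L1. Rrm1 had 2569.6, 2152 and 3004 with IgG2b and 2624 to 3363 with a median of 2994 with anti-PD-L1 in Nr2f6+/+, and 3965, 3999 and 3286 with IgG2b and 2272 to 3628 with a median of 2830.1 with anti-PD-L1 in Nr2f6-/-. For Rrm1 the genotypes did not overlap with IgG2b and overlapped with anti-PD-L1. Aurka in Nr2f6+/+ had 729, 863 and 725 with IgG2b and 495 to 1549.7 with a median of 746 with anti-PD-L1, where the treatments overlapped. The anti-PD-L1 effect had the same sign in both genotypes for 27 of the 51 genes (52.9%), beside 56.0% of all genes.

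The balance between S phase and mitosis genes did not overlap between genotypes under IgG2b, where 14.2% of all genes did not overlap either. The mean log2 level of the 25 S phase genes minus that of the 20 mitosis genes was 0.62, 0.57 and 0.64 in the Nr2f6-/- IgG2b replicates and 0.08, 0.50 and 0.09 in the Nr2f6+/+ IgG2b replicates. It was -0.06 to 0.36 in Nr2f6-/- anti-PD-L1 and -0.08 to 0.68 in Nr2f6+/+ anti-PD-L1. The 3 Nr2f6-/- IgG2b values thus lay above all Nr2f6+/+ IgG2b and all Nr2f6-/- anti-PD-L1 values, and 1 Nr2f6+/+ anti-PD-L1 library, replicate 2 at 0.68, was higher. That library had the fewest detected genes (11107) and 0 reads of Cenpf, which is among the 20 mitosis genes. Between treatments in Nr2f6-/- 5.12% of all genes did not overlap. The balance score was formed after seeing the data and was not tested.

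**Figure D5:**
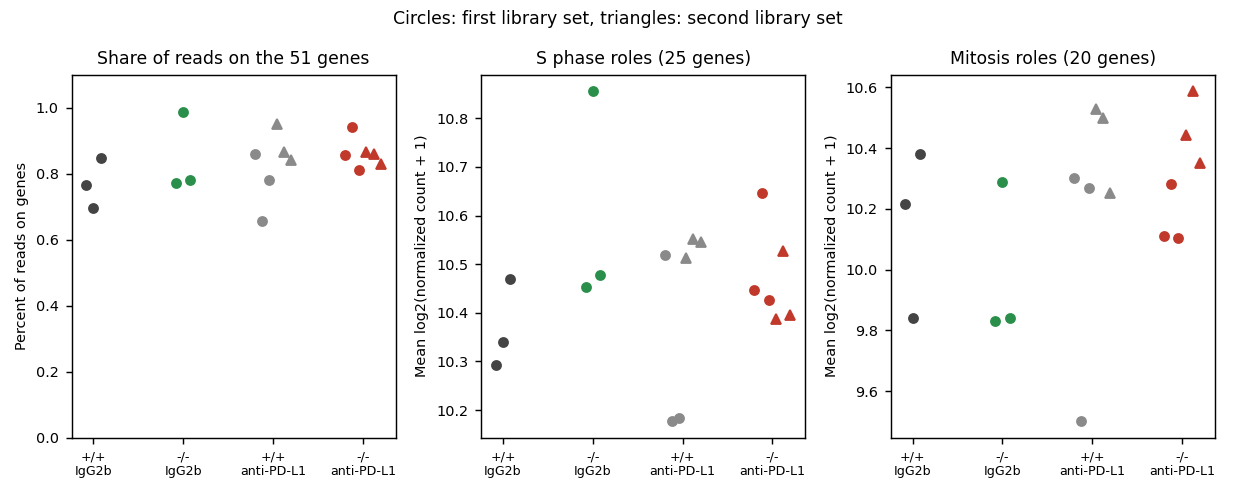
Share of reads on the 51 genes (left, percent), mean log2(normalized count + 1) of the S phase genes (middle) and of the mitosis genes (right) in each sample, by group (horizontal axes). Circles are libraries of the first set, triangles those of the second. The groups overlap in every panel, and the low circle on the right is Nr2f6+/+ anti-PD-L1 replicate 2.

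Combined loss of Nr2f6 and blockade of PD-L1 was compared with the control antibody in wild-type mice. Against Nr2f6+/+ IgG2b, Nr2f6-/- anti-PD-L1 had 39 genes higher and 12 lower, with a median log2 difference of 0.22 (all genes -0.12). Taken alone, the first library set had 34 higher with a median of 0.15. 0 genes passed the adjusted threshold in limma (0.617% of all genes) or edgeR (0.342%), 1 did in DESeq2, Cenpa (1.48%), and 7, all higher, had an unadjusted p under 0.05 (9.04% of all genes, 3.12% higher and 5.92% lower). Asf1b was higher by 0.68 ± 0.21 (SE, limma adjusted p = 0.155), Cenpa by 0.53 ± 0.17 (SE, limma adjusted p = 0.194) and Tk1 by 0.81 ± 0.29 (SE, limma adjusted p = 0.255). Tk1 had 456, 533 and 670.0 normalized counts in Nr2f6+/+ IgG2b and 759 to 1426 with a median of 914 in Nr2f6-/- anti-PD-L1, and Cenpa reached 6065 to 7665 with a median of 6371 in the latter. Taken alone, the first library set gave differences of 0.61 for Asf1b, 0.58 for Cenpa and 0.88 for Tk1. These 3 genes, Prc1 and Ccnb2 did not overlap between the groups, 5 of 51 beside 6.17% of all genes. In the same comparison 7 of 8 T-cell markers were higher (median 0.60), all 10 macrophage and monocyte markers were lower (median -3.56, 3 past the threshold) and all 6 tested melanocyte and tumor-cell markers were lower (median -1.87), and their part in it was not tested.

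The single interventions were compared with each other as Nr2f6-/- IgG2b against Nr2f6+/+ anti-PD-L1. Here 27 genes were higher and 24 lower in Nr2f6-/- IgG2b, 0 passed the adjusted threshold in limma (0.459% of all genes) or edgeR (0.384%), DESeq2 called Asf1b and Nusap1 (2.34%), and 11 had an unadjusted p under 0.05 (11.2% of all genes, 6.1% higher and 5.05% lower). Asf1b differed by 0.77 ± 0.21 (SE, limma adjusted p = 0.097) and did not overlap. Nusap1, at 2421, 4470.2 and 2890.4 normalized counts in Nr2f6-/- IgG2b, differed by -0.98 ± 0.28 (SE, limma adjusted p = 0.118). Cenpk had 65.6, 260.1 and 287 in Nr2f6-/- IgG2b and 291 to 854 with a median of 577 in Nr2f6+/+ anti-PD-L1 and differed by -1.67 ± 0.50 (SE, limma adjusted p = 0.155). With the first library set alone the 3 differences were 0.84, -0.71 and -1.72, and 32 of the 51 genes were higher. The 10 macrophage and monocyte markers were all higher (median 2.34), 5 of the 6 melanocyte and tumor-cell markers were lower (median -1.48) and 6 of 8 T-cell markers were higher (median 0.15) in Nr2f6-/- IgG2b, and their part was not tested. Asf1b, Birc5, Cenpa and Cenpk were the 4 genes without overlap, beside 5.36% of all genes.

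The library sets were also compared directly. Within the anti-PD-L1 groups 35 of the 51 genes were higher and 16 lower in the second set, all 7 spindle and cytokinesis genes among the higher ones (median 0.57). limma and edgeR called 0 of the 51 (0% and 0.0334% of all genes), DESeq2 called Stmn1 (1.28%), and 12 had an unadjusted p under 0.05 (9.31% of all genes, 4.71% higher and 4.59% lower). Stmn1 differed by 0.50 ± 0.15 (SE, limma adjusted p = 0.285), Mcm5 by 0.42 ± 0.14 (SE, limma adjusted p = 0.318) and Cdt1, a licensing factor, by -0.74 ± 0.24 (SE, limma adjusted p = 0.318). Cdt1 had 797 to 1589 with a median of 1153 normalized counts in Nr2f6+/+ anti-PD-L1 and 550.4 to 1909.8 with a median of 1059 in Nr2f6-/- anti-PD-L1. All 51 genes overlapped between the sets, beside 0.534% of all genes that did not.

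The 51 genes varied between replicates largely on their own. Across the 18 samples, deviations from the group means had a mean pairwise correlation of 0.06 over the 1275 pairs of cell cycle genes, beside 0.00 over all genes, and 57.4% of the pairs were positive. Within roles it was 0.42 for Mki67 with Top2a, 0.31 for spindle and cytokinesis, 0.29 for nucleotide supply, 0.09 for the kinetochore, 0.08 for chromatin duplication and 0.05 for licensing and firing. For the kinases and checkpoint (-0.01), the E2F factors (-0.03) and the cyclins and Cdk1 (-0.10) it was below 0. These are descriptions over samples that share library depth and cell mixture. The difference between the library sets was not removed from the deviations, and its part in the correlations was not tested.

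A wider list of 73 further cell cycle genes, of which 72 passed the filter, was tested in the same fit. 1 gene of it passed the adjusted threshold in limma. This was Cdkn1a, which encodes p21, an inhibitor of cyclin-dependent kinases. Its normalized counts in Nr2f6-/- were 2762, 2431 and 1393 with IgG2b and 230.3 to 1082 with a median of 533 with anti-PD-L1, and no anti-PD-L1 library reached the IgG2b libraries. It fell by 2.13 ± 0.46 on the log2 scale (SE, limma adjusted p = 0.0317), in a comparison where 0.325% of all genes passed. In Nr2f6+/+ the counts were 1473, 1268 and 1092 with IgG2b and 268 to 1671 with a median of 1164 with anti-PD-L1, with a difference of -0.46 ± 0.46 (SE, limma adjusted p = 0.889), and the 2 treatment effects did not differ past the threshold (limma adjusted p = 0.974). Averaged over genotypes the log2 difference was -1.30 (limma adjusted p = 0.0432, with 1.13% of all genes called), a call that edgeR, the first library set alone and some other settings did not make. The macrophage markers, lower in the same libraries, are given above, and their part in it was not tested. Of 31 alternatives chosen after seeing the data 21 kept the call in Nr2f6-/-, with adjusted p from 0.00211 to 0.249. It was lost in the first library set alone (-1.88, adjusted p = 0.249) and without any 1 of the 3 Nr2f6-/- IgG2b replicates (adjusted p of 0.222, 0.176 and 0.065 without replicates 1, 2 and 3) or without Nr2f6-/- anti-PD-L1 replicate 3, 5 or 6 (0.0735, 0.0805 and 0.0505).

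Between genotypes limma called 0 genes of the wider list. At an unadjusted p under 0.05 there were 4 higher and 2 lower with IgG2b (5.35% of all genes). With anti-PD-L1 there were 3 higher and 4 lower (9.73% of all genes). edgeR and DESeq2 also called 0 of the 72 in both, and limma called Hmgb2, a chromatin protein gene, with anti-PD-L1 in the first library set alone. Pttg1, or securin, had the smallest p with IgG2b (0.96 ± 0.30, SE) and Tubb5, a beta-tubulin, with anti-PD-L1 (0.39 ± 0.14, SE). For the averaged genotype Tacc3, a spindle protein gene, led (0.60 ± 0.17, SE), with 0 calls in limma and edgeR. There 7 genes had an unadjusted p under 0.05 (8.48% of all genes), and DESeq2 called Tacc3 and Tubb5 (1.51% of all genes).

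In Nr2f6+/+ the treatment comparison of the wider list had 0 calls in limma, edgeR and DESeq2. At an unadjusted p under 0.05 there were 11 higher and 0 lower genes (2.19% and 5.05% of all genes). Cdca8 of the chromosomal passenger complex led them (0.95 ± 0.27, SE, limma adjusted p = 0.192). Comparisons of anti-PD-L1 with IgG2b libraries in this paragraph include the second library set, which held no IgG2b sample. First-set values of these genes are not given, so treatment and library set are mixed here. In Nr2f6-/- DESeq2 added Ccnd3, Cdc25b and Ube2c to Cdkn1a (1.92% of all genes). The treatment effects differed between genotypes for 0 genes in limma, edgeR and DESeq2, with 5 at an unadjusted p under 0.05 (4.97% of all genes). For Nr2f6-/- anti-PD-L1 against Nr2f6+/+ IgG2b, 9 higher and 4 lower genes reached that level (3.12% and 5.92% of all genes). Pttg1 led them (0.85 ± 0.26, SE, limma adjusted p = 0.155). Here limma and edgeR called 0 and DESeq2 called Tubb5 (1.48% of all genes), and limma called Pttg1 with the library set as a covariate or a replicate block. Cdc25b, the phosphatase that activates Cdk1, led the comparison of the single interventions (-1.04 ± 0.29, SE), with 0 calls in limma and edgeR. There 11 genes had an unadjusted p under 0.05 (11.2% of all genes). DESeq2 called Cdc25b and Ube2c (2.34% of all genes), and limma called Ube2c without Nr2f6-/- anti-PD-L1 replicate 1. Tuba1b, an alpha-tubulin, led the comparison of the library sets (0.72 ± 0.18, SE), with 0 calls in limma and edgeR. There 8 genes had an unadjusted p under 0.05 (9.31% of all genes). DESeq2 called H2afz, Incenp and Tuba1b (1.28% of all genes), and limma called Tuba1b after quantile normalization.

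Some of the 51 genes share exons with a neighbour on the opposite strand, 12 in the GENCODE annotation of GRCm38. For 8 of them the shared bases lie within the last 1000 bases of the gene, where 3′ libraries read, namely Ccna2, Ccne2, Cdc20, Chaf1a, Gins2, Kif20a, Mcm7 and Prc1. The strand setting of the counting is not given. Reads in the shared bases therefore cannot be assigned to these genes or to their partners, for example Exosc9 for Ccna2 and Rccd1 for Prc1. The shared part of the last 1000 bases was 53 bases for Cdc20, 510 for Ccna2 and 1000 for Gins2.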

How the data were processed

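CD3+ TILs of 18 samples in 4 groups were sequenced with QuantSeq 3′ libraries on an Ion Torrent Proton. The authors trimmed reads with Cutadapt and Trimmomatic, discarded reads under 22 nucleotides, aligned the rest with STAR and afterwards Bowtie2 against mm10, and counted primary alignments with HTSeq-count. Versions, annotation and strand setting are not given in the sources used here. The deposited signal values are read counts divided by 1 size factor per sample (normalized counts). Dividing by each column's smallest step gave whole reads for 100% of values (tolerance 0.01 reads), 12473391 to 18609482 per sample. The floor of 3 reads (2.46 to 3.64 normalized counts) covers counting error only.

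Genes with a mean of at least 10 (11992 of 37236) were analysed on the log2(normalized count + 1) scale with limma 3.58.1 (R 4.3.3), which understates changes of low genes. One model of 4 group means with eBayes trend was fitted over 18 samples. Two-sided tests were adjusted by Benjamini-Hochberg across all genes at 0.05. edgeR 4.0.16 and DESeq2 1.42.0 on the whole reads, other pseudocounts (0.5 and 10), filters, scalings, library-set fits, a replicate block and leaving out each replicate were alternatives. The statistics were tested on simulated data. No 2 of the 153 pairs of columns were identical. The 51 genes and all lists were chosen with earlier results of these data known. Described in full were, per comparison, the 3 members with the smallest p, with Mki67, Top2a, Pcna and Mcm5 throughout, and of the wider list those past the threshold or the gene with the smallest p. Comparisons averaged over treatment or genotype were added after seeing the data. Promoter windows are from RefSeq (GRCm38.p6), and 9 members without a window are Aurkb, Ccna2, Ccne2, Gins1, Gins2, Kif20a, Mcm4, Stmn1 and Tpx2.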

Additional observations from a re-analysis of the deposited data

Results flagged for a closer look

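Within the 2 groups of 6, 8 of 102 combinations of gene and group held a library far from the other 5, 4 in each genotype, and chance gives about 5%. In Nr2f6+/+ anti-PD-L1 the low libraries were replicate 3 for Tyms (136 normalized counts), the thymidylate synthase gene, and replicate 2 for Chaf1a (384), a CAF-1 subunit, for Cenpf (0) and for Kif23 (22.4), a motor of the central spindle. In Nr2f6-/- anti-PD-L1 they were replicate 1 for Gins2 (206) and replicate 3 for Ccne1 (442), for the checkpoint kinase gene Bub1b (931) and for Mki67 (134). All 8 were below the rest of their group, and Nr2f6+/+ anti-PD-L1 replicate 2 also had the fewest detected genes.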

How the results depend on the processing

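The count of 51 genes past the adjusted threshold was 0 in every comparison under limma, and other settings changed it as follows. Counting an unadjusted p under 0.05 gave 3 genes between genotypes with anti-PD-L1 and 10 with IgG2b, 3 between treatments in Nr2f6+/+ and 7 in Nr2f6-/-, 7 and 11 in the comparisons across genotype and treatment (Nr2f6-/- anti-PD-L1 against Nr2f6+/+ IgG2b and Nr2f6-/- IgG2b against Nr2f6+/+ anti-PD-L1), 4 for the difference of treatment effects, 12 between library sets, 9 for the averaged genotype and 8 for the averaged treatment. DESeq2 gave 2 between genotypes with IgG2b, 1 between treatments in Nr2f6-/-, 1 and 2 across genotype and treatment, 1 between library sets, 2 for the averaged genotype and 3 for the averaged treatment. For the averaged genotype the count was 1, Asf1b, with a pseudocount of 0.5 or 10, with no filter, with a mean of at least 50, after quantile normalization, with the same total per sample and with the library set as a covariate (adjusted p of 0.0489, 0.0429, 0.0419, 0.0495, 0.0464, 0.0495 and 0.0298). Over all its alternatives the adjusted p of Asf1b ran from 1.76e-04 to 0.212. Leaving out 1 library gave 0 to 1 genes for the averaged genotype, 1 (Asf1b) without Nr2f6+/+ anti-PD-L1 replicate 2 or 4 or Nr2f6-/- anti-PD-L1 replicate 6, and 0 to 1 for Nr2f6-/- IgG2b against Nr2f6+/+ anti-PD-L1, 1 (Cdc20) without Nr2f6+/+ anti-PD-L1 replicate 3. The median over the 51 genes moved by less than the spread of 0.163 between replicates in 126 of 126 other fits and in 173 of 174 that left out 1 library, and the exception, the difference of treatment effects, ran from -0.17 to 0.13, the latter without Nr2f6-/- IgG2b replicate 2, against -0.07 with all libraries.

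Replicate numbers are shared between groups, so their pairing was checked. Deviations of same-numbered samples correlated at -0.03 to 0.04 over 21 pairs and 0 exceeded 0.1. Pairs with different numbers were not compared, so this check cannot show whether same-numbered samples were handled together. With the replicate block 0 of the 51 genes were called in each comparison it could be fitted to, the adjusted p of Asf1b for the averaged genotype was 0.0586, and the median over the 51 genes changed sign between treatments in Nr2f6-/- (-0.03) and for the averaged treatment (-0.01). No block could be fitted between library sets. Cdkn1a in Nr2f6-/- also lost its call with no filter (0.173), in a fit of the compared groups alone (0.150) and with the library set as a covariate (0.0513).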
